A study of Homo sapiens with 6 samples.

Results

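The SHC adaptors and the proteins that couple them to RAS were followed here as a set of 10 genes, SHC1, SHC2, SHC3, SHC4, GRB2, SOS1, SOS2, GAB1, GAB2 and PTPN11. They were taken by name, by a rule that uses no measured value though earlier results of these data were known, from the 28181 genes listed in every library, and all 10 were found by their Ensembl identifiers. The libraries came from UE7T-9, a line of human mesenchymal stem cells from bone marrow that was immortalized with telomerase reverse transcriptase and the E7 gene of a human papillomavirus. RNA of 3 libraries of UE7T-9 Cont, the control, and 3 libraries of UE7T-9 SHC4, which overexpressed SHC4, was sequenced. Both groups were the same line grown in DMEM and carried a lentivirus under puromycin selection. The UE7T-9 SHC4 vector held the coding region of SHC4 behind the CMV promoter. The control vector held GFP behind the same promoter according to the study's methods, whereas the labels call the control Nontarget with a WT genotype. The labels name 3 biological replicates a group without saying whether each was a separate infection, so the p-values measure the spread between these libraries, which all derive from 1 cell line.

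SHC proteins are adaptors without enzyme activity. They bind phosphorylated tyrosines of activated receptors through a PTB or an SH2 domain and are then phosphorylated on tyrosines in the region between the domains. The SH2 domain of GRB2 binds these phosphotyrosines where an asparagine follows at the second position, and the SH3 domains of GRB2 hold SOS1 or SOS2, the exchange factors that load RAS with GTP. GAB1 and GAB2 are docking proteins that GRB2 also brings to receptors, and they recruit the phosphatase SHP2, encoded by PTPN11, which is needed for full activation of the RAS and ERK pathway. SHC1 is the widely expressed member of the family, SHC2 and SHC3 are known mainly from neurons, and SHC4 was described in skeletal muscle, brain and melanoma.

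The coding sequences of the SHC genes were searched for the motif that GRB2 reads, since it is the part through which an added SHC would meet the other members. An in-frame tyrosine codon (TAT or TAC), any codon (NNN) and an asparagine codon (AAT or AAC) were sought in the longest coding sequence of each gene in GENCODE 29 on GRCh38, on the coding strand. The windows below are 45 bases of the reference transcript, 5′ to 3′, with the 3 codons of the motif in capitals, and the codon number of the tyrosine is counted from the ATG. All lie on the minus strand within 1 exon. The first site aligns between the 4 genes.
SHC1 codon 349, exon 8, chr1:154966430-154966474: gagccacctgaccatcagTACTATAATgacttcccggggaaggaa
SHC2 codon 338, exon 8, chr19:434781-434825: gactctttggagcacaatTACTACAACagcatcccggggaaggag
SHC3 codon 341, exon 8, chr9:89046910-89046954: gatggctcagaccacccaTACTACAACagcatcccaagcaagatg
SHC4 codon 374, exon 8, chr15:48856049-48856093: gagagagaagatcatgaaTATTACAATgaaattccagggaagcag

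The second site, nearer to the SH2 domain, also aligns between the 4 genes, and SHC4 holds a further motif between the first and the second site that has no aligned motif in the others.
SHC1 codon 428, exon 10, chr1:154966025-154966069: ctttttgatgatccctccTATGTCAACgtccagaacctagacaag
SHC2 codon 414, exon 10, chr19:425140-425184: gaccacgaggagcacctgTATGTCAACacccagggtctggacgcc
SHC3 codon 424, exon 10, chr9:89042090-89042134: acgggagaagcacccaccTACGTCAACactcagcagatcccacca
SHC4 codon 465, exon 10, chr15:48843473-48843517: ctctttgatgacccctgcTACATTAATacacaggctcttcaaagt
SHC4 codon 424, exon 9, chr15:48851195-48851239: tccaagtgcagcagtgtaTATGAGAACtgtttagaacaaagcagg

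The motif is common, being present at least once in 7749 of 19529 coding sequences (39.7%), and a match is a description of letters, not of a phosphorylated site. Of the partners, GRB2 held none, SOS1, SOS2, GAB1 and GAB2 held 1 each and PTPN11 held 4. SHC1 and SHC4 were identical at 64.8% of aligned coding bases, and the other pairs ranged from 59.0% for SHC2 and SHC4 to 69.2% for SHC2 and SHC3. No stretch of 25 bases was common to SHC1 and SHC4 exons, so reads of the added SHC4 had no exact match of that length in SHC1.

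The values below are normalized counts, that is, the reads of a gene divided by a factor that brings the libraries to a common scale. Depth ranged from 18144993 to 27721397 reads assigned to genes, and 3 reads corresponded to 2.50 to 3.53 normalized counts. All 10 mesenchymal stromal markers were present in every library, with sums of 246040 to 671946 in UE7T-9 Cont, against 426429 to 616778 in UE7T-9 SHC4. Of 11 markers of blood, endothelial, epithelial and neural crest cells, 1 to 3 were at 0 in each library and the sums were 321 to 475 and 323 to 391. The stromal sums were carried by the collagen genes COL1A1 and COL1A2, which were highest in UE7T-9 Cont 1, whereas NT5E and ALCAM were lowest there among the controls. By limma 2 stromal markers were higher in UE7T-9 SHC4 at an unadjusted p under 0.05, PDGFRB (log2 fold change 1.38, adjusted p = 0.162) and THY1 (1.15, adjusted p = 0.234), and 1 epithelial marker, KRT18, was lower (-2.92, adjusted p = 0.158). DESeq2 called PDGFRB and KRT18 (adjusted p = 0.0171 and 0.00804). The part of these differences in the members' values was not tested. Without UE7T-9 Cont 1, 367 genes were called higher and 339 lower in place of 12 and 2, so values without that library are given where they matter.

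SHC4, the overexpressed adaptor, was measured first as a check of the labels. It stood at 56.5, 157 and 130 normalized counts in UE7T-9 Cont 1, 2 and 3, and at 134870.4, 119166 and 155006 in UE7T-9 SHC4 1, 2 and 3. The groups were far apart, and every library matched its label. The log2 fold change was 10.32 (SE 0.32, 95% interval 9.60 to 11.05, adjusted p = 2.09e-06, limma with Benjamini-Hochberg adjustment over 23040 genes tested). The controls varied widely among themselves, with a coefficient of variation of 45.3%, and UE7T-9 Cont 1 held the lowest value. Without that library the log2 fold change was 9.88. SHC4 took 0.000242 to 0.000733% of the reads in UE7T-9 Cont, against 0.516 to 0.665% in UE7T-9 SHC4, whereas the 9 other members together took 0.0881 to 0.103% in any library. In bulk RNA, more expressing cells and more RNA per cell cannot be told apart. The reads of the vector and of the chromosomal gene cannot be told apart in these counts. In addition, 169 exon bases of SHC4 (2.79%) overlap EID1 on the opposite strand. EID1 stood at 4294 to 6102 normalized counts, above SHC4 in every control. The library kit does not mark strand, and the part of EID1 reads in the control values of SHC4 was not tested.

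SHC4 was the only member of the 10 that was called, at an adjusted p under 0.05 and a fold change above 2 in either direction, where 0.0608% of all genes tested were called, 0.0521% higher and 0.00868% lower. None of the 9 others was called by limma, and none had an unadjusted p under 0.05, a level that 14.4% of all genes reached, 7.47% higher and 6.96% lower. Counting models on the recovered reads gave the same number, 0 of the others by edgeR, which called 0.0631% of all genes and did not test SHC2, and 0 by DESeq2, which called 2.2% and gave SHC2 no adjusted p. The 2 groups overlapped for each of the 9, whereas they did not overlap for 19.3% of all genes, 9.13% higher and 10.2% lower. For SHC3, GRB2, SOS2 and PTPN11 the overlap rested on UE7T-9 Cont 1, as UE7T-9 Cont 2 and 3 lay above every SHC4 library. When UE7T-9 Cont 1 was left out, SHC3 and SOS1 had an unadjusted p of 0.0372 and 0.0375 (limma). In that fit 5151 of 23087 genes were under 0.05, and none of the 9 was called. The median log2 fold change of the 9 was 0.00, beside 0.00 over all genes tested.

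**Figure D1:**
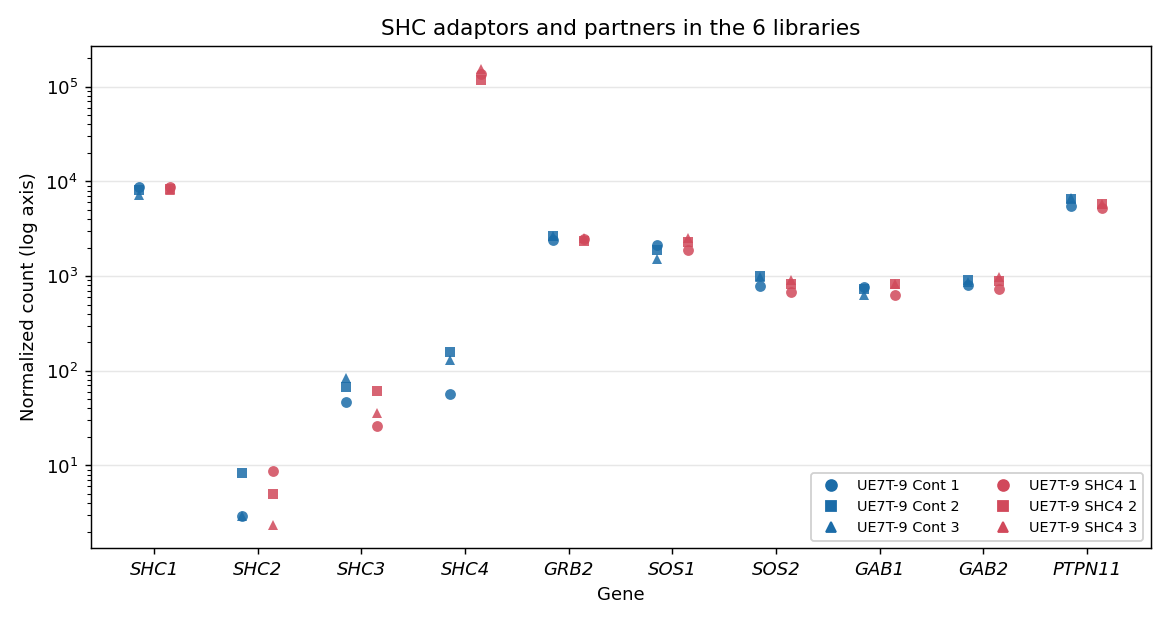
Normalized counts (log axis) of the 10 genes in each of the 6 libraries, with UE7T-9 Cont in blue and UE7T-9 SHC4 in red and a marker shape for each replicate number, which pairs no libraries. SHC4 moved from 56.5 to 157 up to 119166 to 155006, and the groups overlap for each of the 9 other genes.

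SHC1, the main SHC adaptor of receptor tyrosine kinases in most tissues, was the highest of the 10 in control cells. It stood at 8752, 8221 and 7125 normalized counts in UE7T-9 Cont, against 8703, 8297 and 8079 in UE7T-9 SHC4. The 3 SHC4 libraries lay inside the range of the controls. The log2 fold change was 0.06 (SE 0.14, 95% interval -0.26 to 0.38, adjusted p = 0.877, limma), which corresponds to an interval of 0.837- to 1.30-fold. The interval holds changes in either direction, so the direction of any change was not determined. Of the exon bases of SHC1, 335 (7.72%) are shared with PYGO2 on the same strand, which stood at 864 to 1016 normalized counts. Of the 25-base stretches of SHC1, 23.4% also occur in another gene, the largest share of the 10 members.

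SHC3 and SHC2, the family members known from neurons, were low in every library. SHC3 stood at 46.8, 67.1 and 83.6 normalized counts in UE7T-9 Cont, against 26.4, 61.6 and 36.1 in UE7T-9 SHC4, so that 2 of the 3 SHC4 libraries lay under all controls. Its log2 fold change was -0.71 (SE 0.37, 95% interval -1.54 to 0.13) with an adjusted p of 0.424 by limma. Without UE7T-9 Cont 1, the lowest control, the value was -0.93 with an adjusted p of 0.192. SHC2 was counted at the limit of these libraries, with 3, 7 and 3 reads in UE7T-9 Cont, against 10, 6 and 2 in UE7T-9 SHC4. These correspond to 2.92, 8.24 and 2.95 against 8.79, 4.99 and 2.33 normalized counts, and the interval of the log2 fold change, -1.28 to 1.58, left its direction undetermined.

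GRB2, the adaptor that links phosphorylated SHC to SOS, had the smallest standard error of the 10. It stood at 2435, 2636 and 2662 normalized counts in UE7T-9 Cont, against 2479, 2338 and 2499 in UE7T-9 SHC4, with means of 2578 ± 124 and 2439 ± 87.7 (SD, n = 3). The log2 fold change was -0.08 (SE 0.11, 95% interval -0.33 to 0.17, adjusted p = 0.791, limma). UE7T-9 Cont 2 and 3 lay above every SHC4 library, and without UE7T-9 Cont 1 the value was -0.12 (adjusted p = 0.608).

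SOS1 and SOS2, the exchange factors that GRB2 carries to RAS, leaned in opposite directions without passing the test. SOS1 stood at 2155, 1877 and 1502 normalized counts in UE7T-9 Cont, against 1870.2, 2282 and 2519.9 in UE7T-9 SHC4. UE7T-9 Cont 1 and 2 lay above the lowest SHC4 library, and UE7T-9 SHC4 2 and 3 lay above all controls. The log2 fold change of SOS1 was 0.27 (SE 0.17, 95% interval -0.10 to 0.65, adjusted p = 0.491, limma). SOS2 stood at 788, 1001 and 977 in UE7T-9 Cont, against 675, 822 and 909 in UE7T-9 SHC4, where the lowest control lay within the SHC4 range. Its log2 fold change was -0.20 (SE 0.16, 95% interval -0.55 to 0.15, adjusted p = 0.588, limma). Without UE7T-9 Cont 1 the values were 0.39 (adjusted p = 0.193) for SOS1 and -0.31 (adjusted p = 0.262) for SOS2, again short of the threshold.

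GAB1 and GAB2, the docking proteins, stood at similar counts. GAB1 was at 767, 728 and 636 normalized counts in UE7T-9 Cont, against 632, 832 and 819.8 in UE7T-9 SHC4. GAB2 was at 809, 914 and 862 in UE7T-9 Cont, against 733, 896 and 974 in UE7T-9 SHC4. For both genes the lowest value of the 6 was that of UE7T-9 SHC4 1, and the highest belonged to another SHC4 library. The log2 fold changes were 0.09 (SE 0.15, adjusted p = 0.819) for GAB1 and 0.00 (SE 0.14, adjusted p = 0.998) for GAB2, with 95% intervals of -0.24 to 0.43 and -0.31 to 0.32 (limma).

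PTPN11, the gene of the phosphatase SHP2, was the second most abundant member in control cells. It stood at 5549, 6497 and 6676 normalized counts in UE7T-9 Cont, against 5271, 5776 and 5850.4 in UE7T-9 SHC4. All SHC4 libraries lay under UE7T-9 Cont 2 and 3, and UE7T-9 Cont 1 lay among them. The log2 fold change was -0.14 (SE 0.14, 95% interval -0.45 to 0.16, adjusted p = 0.666, limma), and -0.23 (adjusted p = 0.359) without UE7T-9 Cont 1. Of the 25-base stretches of PTPN11, 19.5% also occur in another gene, and its pseudogenes PTPN11P3 and PTPN11P5 were listed at no more than 3.52 normalized counts. RPL6, on the opposite strand, shares 111 exon bases (1.58%) with PTPN11 and stood at 9869 to 18273 normalized counts, above PTPN11 in every library. As the library kit does not mark strand, the reads of these bases cannot be assigned to either gene.

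**Figure D2:**
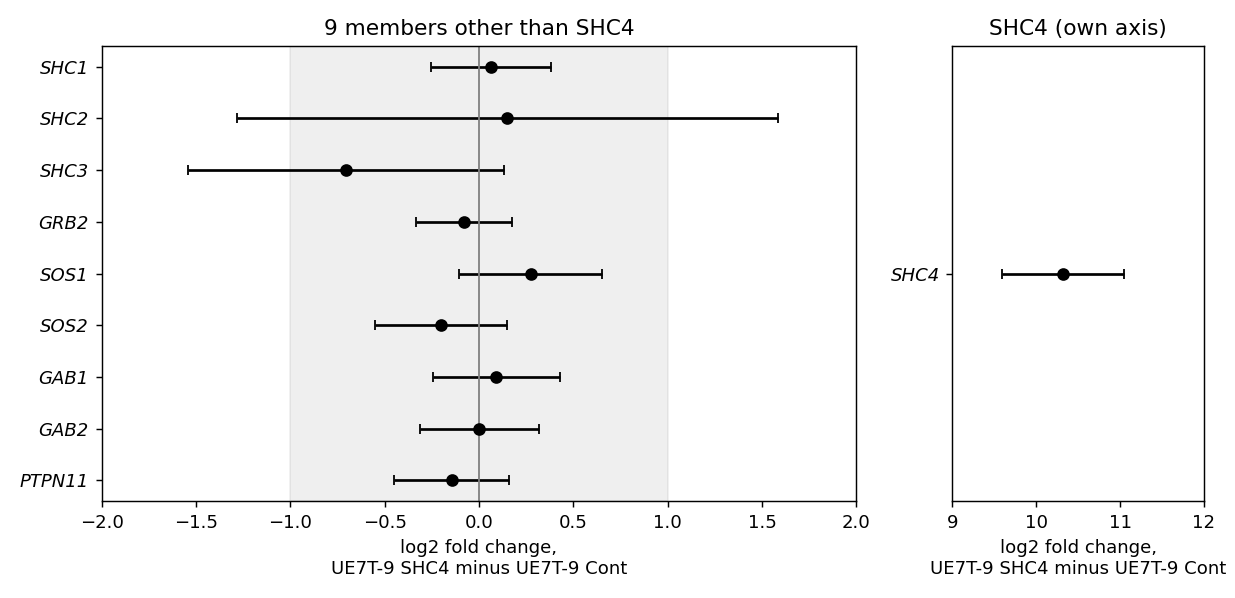
Log2 fold change of each gene, UE7T-9 SHC4 minus UE7T-9 Cont, on the log2(normalized count + 1) scale, with the 95% interval from limma as bars and the range of -1 to 1 shaded. SHC4, at 10.32, has an axis of its own, and the bars of the 9 other genes all cross 0.

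Apart from SHC2 and SHC3, the 7 members other than SHC4 were measured at levels that bound their change. Their 95% intervals ran from -0.55 to 0.65 on the log2 scale, so folds outside 0.682 to 1.57 lay beyond every one of them, and their adjusted p ranged from 0.491 to 0.998 (limma). Scaling by library size in place of the deposited factors moved the median of all genes to -0.10, and the small values of SHC1, GAB1 and GAB2 then fell below 0.

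To set the genes against each other, counts were divided by the length of the merged exons in kb. In UE7T-9 Cont the order was SHC1 with 1849.96 ± 191 normalized counts per kb, PTPN11 with 889 ± 86.2, GRB2 with 547 ± 26.3 and SOS1 with 199 ± 35.4 (SD, n = 3). SOS2 with 133 ± 16.8 and GAB2 with 127 ± 7.72 followed and overlapped, the only neighbours in the order that did. GAB1 came next with 70.2 ± 6.62, then SHC4 with 18.9 ± 8.54, SHC3 with 6.63 ± 1.86 and SHC2 with 1.14 ± 0.741 normalized counts per kb. Per kb of merged exons, SHC1 RNA thus exceeded that of GRB2, and GRB2 RNA that of both SOS genes together. The order depended on the length. Per kb of the longest coding sequence, which is short in GRB2, SHC1 at 4585 ± 473 overlapped GRB2 at 3959 ± 191, and PTPN11 at 3485 ± 338 stood below GRB2. On that scale GAB2 at 425 ± 25.8 and GAB1 at 327 ± 30.9 stood above SOS2 at 231 ± 29.2, and GAB2 overlapped SOS1 at 461 ± 82.0. By the level per kb of merged exons, among 15339 protein-coding genes, SHC1 ranked 354 in control cells, PTPN11 902, GRB2 1614 and SOS1 4637. SHC4 ranked 11159 in control cells and 19 in UE7T-9 SHC4 on that scale.

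In UE7T-9 SHC4, SHC4 stood at 22488 ± 2963 normalized counts per kb of merged exons. SHC1 stood at 1925 ± 73.0, PTPN11 at 802 ± 44.9 and GRB2 at 517 ± 18.6. The vector held only the coding region of SHC4, 1.89 kb in its longest form, whereas the merged exons span 6.063 kb. Dividing vector reads by that length understates SHC4 in the level, rank, ratios and family shares of this group. Per kb of the longest coding sequence SHC4 stood at 72141 ± 9506 (SD, n = 3). The order of the members other than SHC4 was kept but for a pair. GAB2, at 128 ± 18.1, and SOS2, at 116 ± 17.1, changed places within their overlap.

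The makeup of the SHC family was thereby inverted. SHC1 made up 98.6% ± 0.626 (SD, n = 3) of the family's RNA per kb in UE7T-9 Cont, and SHC4 0.459, 1.34 and 1.28% in the 3 libraries. In UE7T-9 SHC4, SHC4 made up 91.7, 91.1 and 93.2%, and SHC1 7.97% ± 1.07. The share of SHC1 was lower although its own normalized count, given above, did not pass the test.

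**Figure D3:**
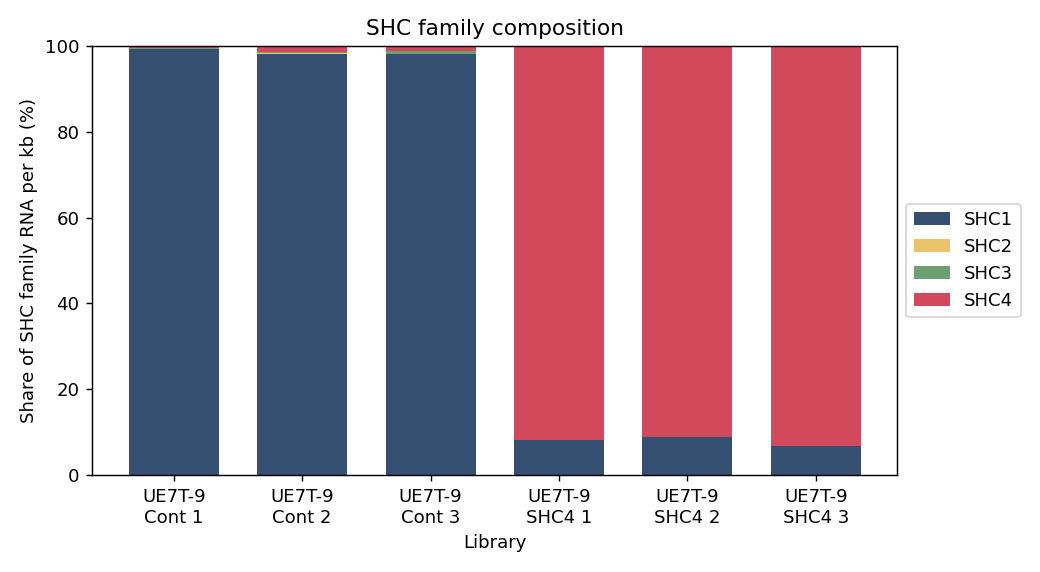
Share of each of the 4 SHC genes in the summed SHC family RNA (normalized counts per kb, in percent) for each of the 6 libraries, 1 stacked bar per library. SHC1 fills 98.6% on average in UE7T-9 Cont and SHC4 92.0% in UE7T-9 SHC4.

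Ratios between the members were compared between the groups by an exact two-sided permutation test on log2 ratios, which with 3 against 3 libraries cannot give a p under 0.1, so none of the 10 ratios could pass. The ratio of SHC4 to SHC1 per kb was 0.0104 ± 0.00504 in UE7T-9 Cont, against 11.7 ± 1.81 in UE7T-9 SHC4 (SD, n = 3, exact p = 0.1, adjusted over 10 ratios 0.25). All SHC genes together stood at 3.45 ± 0.485 per GRB2 in UE7T-9 Cont, against 47.1 ± 4.22 in UE7T-9 SHC4, 13.7-fold higher (exact p = 0.1, adjusted 0.25). The ratio of SHC1 alone to GRB2 was 3.40 ± 0.498 and 3.73 ± 0.187 (exact p = 0.4, adjusted 0.5), with overlapping libraries. The ratio of the whole family to GRB2 was higher in every SHC4 library than in any control, while that of SHC1 alone differed by less than the spread between the controls.

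Downstream of GRB2, SOS1 and SOS2 together stood at 0.609 ± 0.0676 per GRB2 in UE7T-9 Cont, against 0.689 ± 0.104 in UE7T-9 SHC4 (exact p = 0.3, adjusted 0.429). The ratio of SOS1 to SOS2 was 2.05, 1.40 and 1.15 in UE7T-9 Cont, against 2.08 in each of the UE7T-9 SHC4 libraries. The groups were apart, but UE7T-9 Cont 1 lay just under the SHC4 libraries (log2 difference 0.48, exact p = 0.1, adjusted 0.25). GAB1 to GAB2 was 0.554 ± 0.0724 and 0.587 ± 0.0302 (exact p = 0.5), GAB1 and GAB2 together to PTPN11 0.224 ± 0.0235 and 0.253 ± 0.0223 (exact p = 0.2), and PTPN11 to GRB2 1.62 ± 0.0817 and 1.55 ± 0.117 (exact p = 0.6), all with overlapping groups. These ratios depend on the length used, and with the longest coding sequence in place of the merged exons, in UE7T-9 Cont, SHC1 to GRB2 was 1.16 and SOS1 and SOS2 together to GRB2 0.175.

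**Figure D4:**
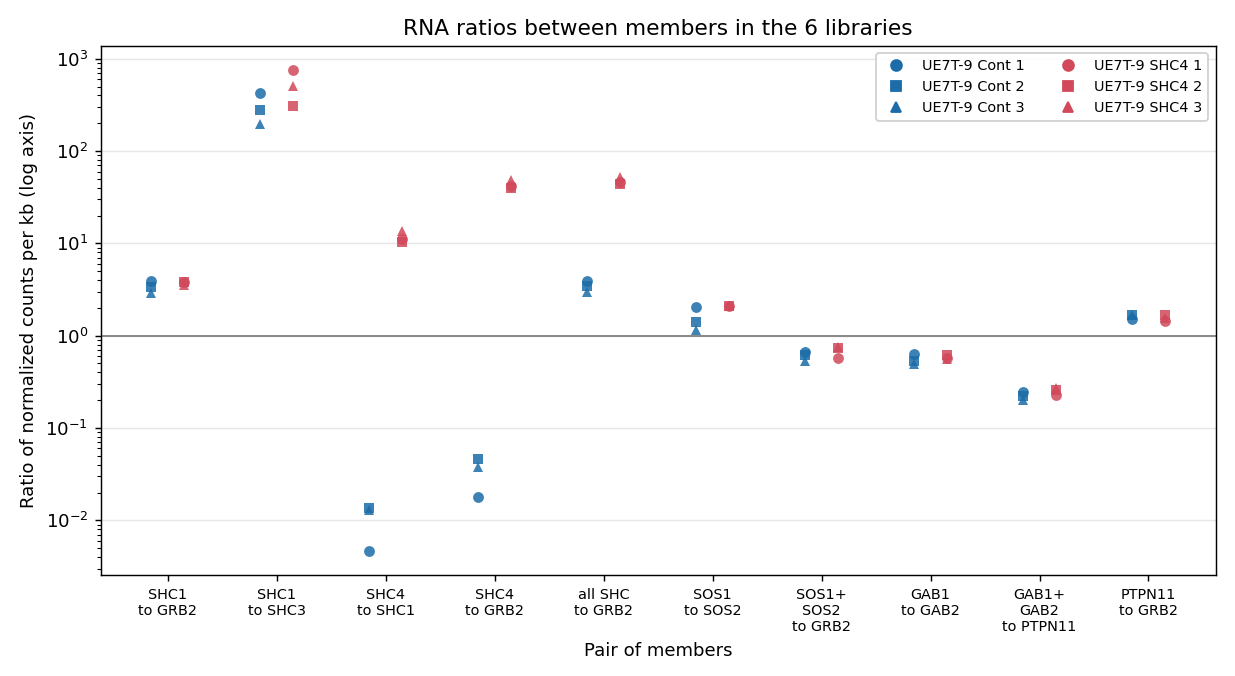
Ratios of normalized counts per kb between members (log axis, line at 1) in each library, UE7T-9 Cont in blue and UE7T-9 SHC4 in red. The ratios with SHC4 in them moved by several orders of magnitude or, for all SHC genes to GRB2, from 3.45 to 47.1, and SOS1 to SOS2 lay between 1.15 and 2.05 in the controls and at 2.08 in UE7T-9 SHC4.

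The genes whose pattern over the 6 libraries was nearest to SHC1, by the root mean square difference of centred log2 values among 12677 genes, were ZNHIT1 (0.02), AXIN1 (0.03) and INTS10 (0.03). For GRB2 they were MTPN (0.01), PHKG2 (0.02) and GLUD1 (0.02). Among the members PTPN11 was nearest to GRB2, at 0.08, and ranked 706 of these genes.

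The next steps of the pathway were described with 77 genes outside the members, in 6 lists, of which 70 were tested. None was called by limma, edgeR or DESeq2, which called 0.0608%, 0.0631% and 2.2% of all genes. At such shares the absence of calls among 70 genes does not set them apart. By limma, 7 were higher and 11 lower at an unadjusted p under 0.05, which is 25.7% of them beside 14.4% of all genes, and the groups did not overlap for 22 of them (31.4%, beside 19.3%). These shares are of unlike abundance, as the pathway genes had a median of 1089 normalized counts in UE7T-9 Cont and all genes include low ones. With a filter at a mean of 10, 2721 of 15857 genes had an unadjusted p under 0.05. The part of abundance in the difference was not tested. The smallest adjusted p was 0.155.

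Of the 6 RAS GTPases, the switches that SOS loads, 1 was higher and 1 lower at an unadjusted p under 0.05 and the median log2 fold change was -0.05. RRAS stood at 1281, 957 and 846 normalized counts in UE7T-9 Cont, against 1747, 1428 and 1456 in UE7T-9 SHC4 (log2 fold change 0.60, adjusted p = 0.194, limma). RRAS2 stood at 1727, 2169 and 2714 against 1751, 1214 and 1326 (-0.62, adjusted p = 0.216). NRAS, one of the classical RAS genes, was at 2143, 2249 and 2165 against 1956, 1800.4 and 1765 (-0.25, adjusted p = 0.352). The SHC4 libraries lay above all controls for RRAS and below all for NRAS, and for RRAS2 1 control lay among them.

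Of the exchange factors other than SOS, 7 of 8 were tested, 0 were higher and 2 lower at an unadjusted p under 0.05, and the median was -0.66. RASGRF1, a calcium-responsive exchange factor, stood at 7.80, 22.4 and 42.3 normalized counts in UE7T-9 Cont, against 7.03, 3.33 and 4.66 in UE7T-9 SHC4. Its relative RASGRF2 stood at 67.3, 144 and 287 against 76.5, 61.6 and 59.4. UE7T-9 Cont 1 lay close to the SHC4 libraries for both genes, and their log2 fold changes of -1.83 and -1.09 had adjusted p of 0.249 and 0.309 (limma). Without that library, when 3.06% of all genes were called and 1.47% were called lower, 4 of the pathway genes were called, all lower. They were RASGRF2 at -1.62 (adjusted p = 0.0183), RASGRF1 at -2.45 (0.0342), the exchange factor RASGRP3 at -1.03 (0.0261) and INPP5D, the gene of the lipid phosphatase SHIP1, which binds SHC, at -1.14 (0.0277). RAPGEF1, the most abundant of the list and an exchange factor for RAP, was at 0.10 (adjusted p = 0.756).

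The list of RAS GTPase activating proteins, which switch RAS off, also held SPRED1 and SPRED2. Of its 12 genes 10 were tested, with 1 higher and 2 lower at an unadjusted p under 0.05 and a median of 0.00. DAB2IP, an activating protein, stood at 1660.1, 1251 and 1017 normalized counts in UE7T-9 Cont, against 1920.3, 2321 and 2472 in UE7T-9 SHC4. Every SHC4 library lay above every control for DAB2IP (0.79, adjusted p = 0.155, limma). SPRED2, which recruits neurofibromin to RAS, was at -0.29 (adjusted p = 0.284), and NF1, the gene of neurofibromin, at -0.04 (adjusted p = 0.913).

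The 11 RAF, MEK and ERK kinases and their scaffolds, which carry the signal from RAS, held 0 genes at an unadjusted p under 0.05 in either direction, with a median of 0.02. MAPK3, the gene of ERK1, stood at 1673, 1262 and 1102 normalized counts in UE7T-9 Cont, against 1993, 1606 and 1534 in UE7T-9 SHC4 (0.36, adjusted p = 0.394, limma). The scaffold KSR2 was low, at 13.8 to 32.2 in UE7T-9 Cont, against 6.99 to 12.5 in UE7T-9 SHC4 (-0.98, adjusted p = 0.401).

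Of other docking and adaptor proteins, 21 of 25 were tested, with 5 higher and 1 lower at an unadjusted p under 0.05 and a median of 0.16. SH2B3, an adaptor that dampens cytokine receptor signalling and the most abundant gene of its list, stood at 3053, 3800.2 and 5039 normalized counts in UE7T-9 Cont, against 2873, 2114 and 2282 in UE7T-9 SHC4 (-0.69, adjusted p = 0.195, limma). DOK6, a docking protein of the RET receptor, stood at 138, 146 and 86.6 against 157, 238 and 247 (0.80, adjusted p = 0.233). The groups were apart for both genes.

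Of 15 regulators that bind SHC or the phosphorylated receptors beside it, 0 were higher and 5 lower at an unadjusted p under 0.05, beside 6.96% of all genes that were lower at that level, and the median was -0.05. PIK3R3, a regulatory subunit of PI3-kinase, stood at 639, 731 and 851 normalized counts in UE7T-9 Cont, against 437, 522 and 512 in UE7T-9 SHC4 (-0.59, adjusted p = 0.174, limma). SHCBP1, which binds the SH2 domain of SHC and is also known from dividing cells, stood at 1355, 1647 and 1847 against 1219.9, 1056 and 1102 (-0.51, adjusted p = 0.189). Every SHC4 library lay below every control for PIK3R3 and SHCBP1. ERBIN, the most abundant of the list, was at -0.02 (adjusted p = 0.953).

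**Figure D5:**
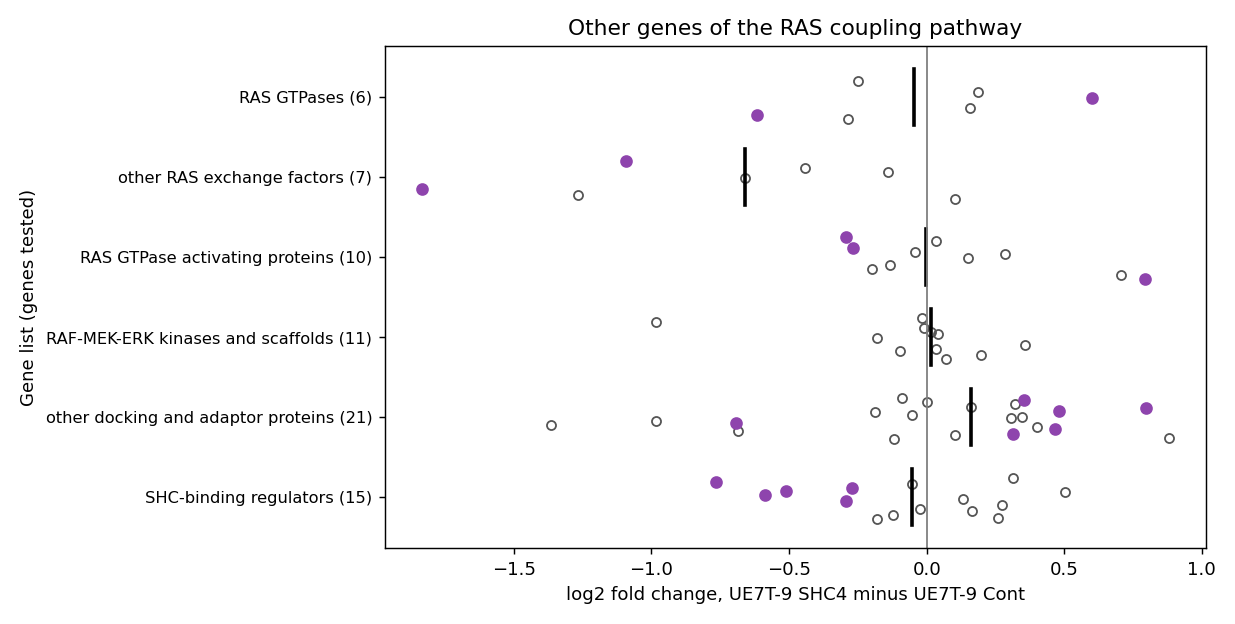
Log2 fold changes, UE7T-9 SHC4 minus UE7T-9 Cont, of the 70 pathway genes tested outside the members, by list. Each circle is a gene, filled where its unadjusted p is under 0.05 by limma, and the vertical bars are list medians, from -0.66 to 0.16. No gene shown was called after adjustment, where 0.0608% of all genes were.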

How the data were processed

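RNA was extracted with DNase treatment and sequenced from an NEBNext Ultra RNA library, a kit that does not mark strand. The authors deposited 1 table per library of counts divided by size factors (signal values, normalized counts), and their processing notes name HISAT2 2.0.5, featureCounts 1.5.0-p3 and DESeq2. The genome build and counting options are not given in the sources used here. Dividing by the value of 1 read gave whole reads for 100.0% of values (tolerance 0.01). All 28181 identifiers were matched to symbols and exon lengths in GENCODE 29 (GRCh38), and 0 columns were left unmapped.

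Values were tested as log2(normalized count + 1) with limma 3.58.1 (R 4.3.3, trend), without a covariate, in genes with a mean of at least 1, and p-values were adjusted over all 23040 genes tested by Benjamini-Hochberg. A gene was called where the adjusted p was under 0.05 and the log2 fold change exceeded 1 in size. Fold changes of low genes are understated by the pseudocount of 1. Alternatives were edgeR 4.0.16 and DESeq2 1.42.0 on recovered reads, other scalings, filters and pseudocounts, a replicate block, other gene lengths, and leaving out each library. The fits were also run on simulated data, with planted changes larger than those of the members other than SHC4. That run does not measure the power for smaller changes. Intervals are at 95% and cover the spread between these libraries.

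The members and lists were chosen with earlier results of these data known. Named genes were the 10 members, per list the 2 genes of smallest unadjusted p and the most abundant one, the 3 nearest patterns to SHC1 and GRB2, genes overlapping exons of a member and pseudogenes of a member. RASGRP3, INPP5D and the individual cell type markers were named after their values were seen. 1 gene that the naming rule gives is not reported here. Of the 77 pathway genes, 3 were not analysed here and 4 were below the filter.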

Additional observations from a re-analysis of the deposited data

How the results depend on the processing

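SHC4 was the only member called under every alternative run, and 0 pathway genes were called except without UE7T-9 Cont 1, so that leaving out 1 library at a time gave 0 to 4. The number of all genes called depended on the settings, and the cause was not tested. The 12 higher and 2 lower genes became 170 and 185 with DESeq2, 19 and 5 with library size scaling, 20 and 4 with TMM factors, and 31 and 9 without a filter on low values. The lower number was 1 with edgeR and 1 with a pseudocount of 0.1. Leaving out 1 library gave 1 to 367 higher and 0 to 339 lower, the highest numbers without UE7T-9 Cont 1.

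Same-numbered libraries deviated together with correlations of 0.148, 0.01 and -0.01, so the numbers do not pair them. A replicate block gave 25 higher and 14 lower genes and changed no call among the members or pathway genes.

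Log2 fold changes near 0 changed sign with library size scaling, to -0.041 for SHC1, -0.010 for GAB1 and -0.10 for GAB2. When 1 library was left out they ranged from -0.022 to 0.13 for SHC1, -0.23 to 0.56 for SHC2, -0.087 to 0.12 for GAB2 and 9.88 to 10.61 for SHC4.

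Ratios in UE7T-9 Cont rest on the length used. Per kb of the longest coding sequence they were 1.16 for SHC1 to GRB2, 133.8 for SHC1 to SHC3, 0.0151 for SHC4 to GRB2, 1.19 for all SHC to GRB2, 2.05 for SOS1 to SOS2, 0.175 for both SOS to GRB2, 0.773 for GAB1 to GAB2 and 0.879 for PTPN11 to GRB2, and SHC4 to SHC1 in UE7T-9 SHC4 was 15.2. The value of 15.2 shortens the length of SHC1 too, so it does not correct for the vector's missing exon bases alone. Per kb of the longest transcript, GAB1 to GAB2 was 0.632 and PTPN11 to GRB2 1.48. The depth limits SHC2, counted at 2 to 10 reads.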
